A study of Mus musculus with 12 samples.

Results

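Il6 encodes the cytokine interleukin-6, Il6ra the receptor chain that binds it, and Il6st the signalling chain gp130. These 3 genes were chosen by name, with earlier results of these data known. Il6 was taken because it has been reported as a target of miR-142-3p in dendritic cells (DCs). The 3 genes were read from 6 probe sets among 17097 genes and 45037 non-control probe sets. Il6 had 1 probe set, Il6ra had 2 and Il6st had 3. Expression was measured on 12 Affymetrix arrays of splenic DCs from 10-week-old male C57BL/6 mice, in 4 groups of 3 arrays: miR-142 knockout (KO) given lipopolysaccharide (LPS), wild-type (WT) littermates given LPS, unstimulated KO and unstimulated WT. LPS is a bacterial cell wall component that activates DCs through a Toll-like receptor. Each spleen was processed on its own, and the DCs were taken by positive selection whose target the labels do not name. Titles, source names and cell type entries give DCs, although the free-text description of each array speaks of T cells. Nor do the labels say how miR-142 was deleted or whether LPS was given to the mice or to the cells.

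IL-6 binds Il6ra, and the pair then joins gp130, which carries the signal into the cell through JAK kinases and the transcription factor STAT3. gp130 is shared by the other cytokines of the IL-6 family, so it is found on far more cell types than Il6ra. DCs and macrophages release IL-6 after Toll-like receptor signals, and the Il6 gene is switched on through NF-kB and C/EBP sites close to its start. In rodent heart muscle, gp130 has also been reported as a target of miR-142.

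The microRNAs of the deleted locus are shown because their seeds are the bases that pair with target transcripts. The sequences are RefSeq mature microRNAs on GRCm38.p6, with the seed (bases 2 to 8) in capitals.
miR-142a-3p, chr11:87756903-87756925, plus strand: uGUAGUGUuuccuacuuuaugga
miR-142a-5p, chr11:87756867-87756887, plus strand: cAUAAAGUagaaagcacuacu
miR-142b, chr11:87756906-87756925, minus strand: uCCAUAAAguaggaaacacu
No 2 of these seeds are the same, and miR-142b is the reverse complement of bases 4 to 23 of miR-142a-3p. No probe set carried the symbol Mir142 alone, so the genotype labels were not checked against its level. Seed matches in the Il6 or Il6st transcripts were not analysed here.

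The 250 bases before each gene's start are shown because Il6 responded to LPS while no receptor chain passed the test. They come from RefSeq promoters on GRCm38.p6, and capitals mark matches on either strand to an NF-kB pattern (GGG, 5 bases of any kind, then CC), a C/EBP pattern (TTNNGNAAT), an AP-1 pattern (TGANTCA) or a CRE half-site (ACGTCA).
Il6, chr5:30012864-30013113, plus strand: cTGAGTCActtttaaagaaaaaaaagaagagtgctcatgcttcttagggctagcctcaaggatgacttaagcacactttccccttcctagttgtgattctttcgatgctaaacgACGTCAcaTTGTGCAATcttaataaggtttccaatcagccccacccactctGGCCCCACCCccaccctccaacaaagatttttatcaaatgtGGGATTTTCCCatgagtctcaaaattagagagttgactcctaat
Il6ra, chr3:89913197-89913446, minus strand: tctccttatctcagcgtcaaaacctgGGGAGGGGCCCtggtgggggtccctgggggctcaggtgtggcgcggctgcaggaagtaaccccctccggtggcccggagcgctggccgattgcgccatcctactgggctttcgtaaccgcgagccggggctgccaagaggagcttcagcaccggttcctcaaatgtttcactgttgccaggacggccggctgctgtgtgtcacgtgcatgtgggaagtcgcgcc
Il6st, chr13:112463820-112464069, plus strand: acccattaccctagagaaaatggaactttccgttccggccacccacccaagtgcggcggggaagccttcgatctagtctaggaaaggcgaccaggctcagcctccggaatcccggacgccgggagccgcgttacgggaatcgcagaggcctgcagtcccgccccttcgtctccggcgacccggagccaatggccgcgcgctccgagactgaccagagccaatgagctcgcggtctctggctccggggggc
The Il6 window held all 4 patterns, with GGGATTTTCC beginning 44 bases before the gene start, TTGTGCAAT beginning 128 bases, ACGTCA 136 bases and TGAGTCA at the far end of the window. The Il6ra window held the NF-kB pattern alone, as 2 overlapping matches, and the Il6st window held none of the 4. The NF-kB pattern is loose and occurred in 45.8% of the 32851 promoter windows of this length. The C/EBP pattern occurred in 10.2% of them, the AP-1 pattern in 6.75% and the CRE half-site in 6.47%. GC content was 42.8% in the Il6 window, 65.2% in that of Il6ra and 66.0% in that of Il6st, against a median of 52.4% over all windows. The patterns were not chosen blind to Il6, whose NF-kB and C/EBP sites were already known, so finding them there is no test. These matches describe letters and not binding, and their part in the LPS values was not tested.

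KO LPS array 2 stood apart from the rest, correlating at 0.935 to 0.958 with the other 11 arrays, which correlated at 0.966 to 0.991 among themselves. Its Gapdh signal at the 3' end exceeded that in the middle of the transcript by 3.04 on the log2 scale, against 1.53 to 1.86 on the others. Most results are therefore given with and without it. DC markers were present on all arrays: 8 of 10 listed markers were measured, all with group means above the median gene (3.14 on the log2 scale), and their summed linear signal was 1200 to 2244 in KO with LPS, where array 2 was lowest, 2177 to 2447 in WT with LPS, 2097 to 2258 in unstimulated KO and 2156 to 2356 in unstimulated WT. Of 10 neutrophil markers 8 were measured, with a summed signal of 2167 to 6125 in KO and 184 to 869 in WT after LPS, and 2287 to 7093 in KO and 200 to 954 in WT unstimulated, with Elane under the median gene in all groups. Array 3 had the lowest neutrophil sum in each of the 4 groups, and the other arrays gave 6093 and 6125 in KO and 829 and 869 in WT after LPS. The summed signal of 8 measured natural killer (NK) cell markers was 820 to 979 in KO and 200 to 280 in WT after LPS, and 818 to 971 in KO and 212 to 282 in WT unstimulated, with Ncr1 under the median gene in all groups. Summed B and plasma cell markers (7 of 8 measured) gave 254 to 499 in KO and 489 to 699 in WT after LPS, and 356 to 507 in KO and 550 to 701 in WT unstimulated, overlapping after LPS alone. T cell markers (7 of 10 measured) summed to 89.6 to 120 in KO and 111 to 134 in WT after LPS, and 105 to 109 in KO and 119 to 152 in WT unstimulated, with Cd3g under the median gene in every group. The mean log2 level of the DC markers was also lower on every KO array than on every WT array, at 6.06 to 6.81 in KO and 6.91 to 7.09 in WT after LPS, and 6.69 to 6.84 in KO and 6.88 to 7.04 in WT unstimulated. Monocyte and macrophage markers (9 of 10 measured) summed to 606 to 736 in KO and 497 to 936 in WT after LPS, and 610 to 846 in KO and 492 to 996 in WT unstimulated. The neutrophil, NK, B cell and DC marker differences, and that of the T cell markers without stimulation, run with genotype, and their part in the genotype comparisons below was not tested.

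LPS raised Il6 in both genotypes. Il6 (probe set 1450297_PM_at) measured 5.31, 6.18 and 4.56 on the 3 KO arrays with LPS and 2.56, 2.17 and 2.18 on the unstimulated KO arrays, on the log2 scale. In WT it measured 4.78, 4.23 and 4.55 with LPS and 2.16, 2.00 and 2.41 without. Every LPS array lay above every unstimulated array in either genotype. Groups without overlap in that direction were found for 5.75% of genes in KO and 6.81% in WT. Unstimulated means of 2.31 ± 0.22 in KO and 2.19 ± 0.21 in WT (SD, n = 3) lay under the median gene, above 30.5% and 27.1% of genes, so a fold against them is uncertain. With LPS the mean of 5.35 ± 0.81 in KO lay above 85.6% of genes and that of 4.52 ± 0.28 in WT above 75.2% (SD, n = 3). In this bulk RNA, more cells that express a gene and more transcript per cell cannot be told apart.

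The LPS effect on Il6 was 3.04 ± 0.31 in KO (log2 difference ± SE, 95% interval 2.37 to 3.72, limma adjusted p = 0.000854) and 2.33 ± 0.31 in WT (1.66 to 3.00, adjusted p = 0.00861), or 8.24-fold and 5.03-fold. By p-value Il6 ranked 6 in KO and 12 in WT among the 17097 genes. It was the 1 gene of the 3 that passed in either comparison, in which 0.392% of all genes passed in KO and 0.117% in WT (0.573% and 0.392% without KO LPS array 2). Permuting the stimulation within genotype gave an exact two-sided p of 0.005 for Il6 over all 12 arrays, the smallest such a test can give, for a difference of 2.69. Arrays of the same number rose by 2.75, 4.004 and 2.38 in KO and by 2.63, 2.23 and 2.14 in WT, so array 2 gave the largest KO change and the other KO changes lay near the WT range. Without KO LPS array 2 the KO effect was 2.63 ± 0.22 (adjusted p = 0.000162), and the WT effect of 2.33 ± 0.20 had an adjusted p of 0.00036. The WT call was lost without WT unstimulated array 1 (2.31, limma adjusted p = 0.0766) or 2 (2.23, adjusted p = 0.0778) and without WT LPS array 1 (2.20, adjusted p = 0.0689) or 3 (2.31, adjusted p = 0.0701). The KO call was lost when the fit held the 2 KO groups alone (3.04, adjusted p = 0.0823).

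**Figure D1:**
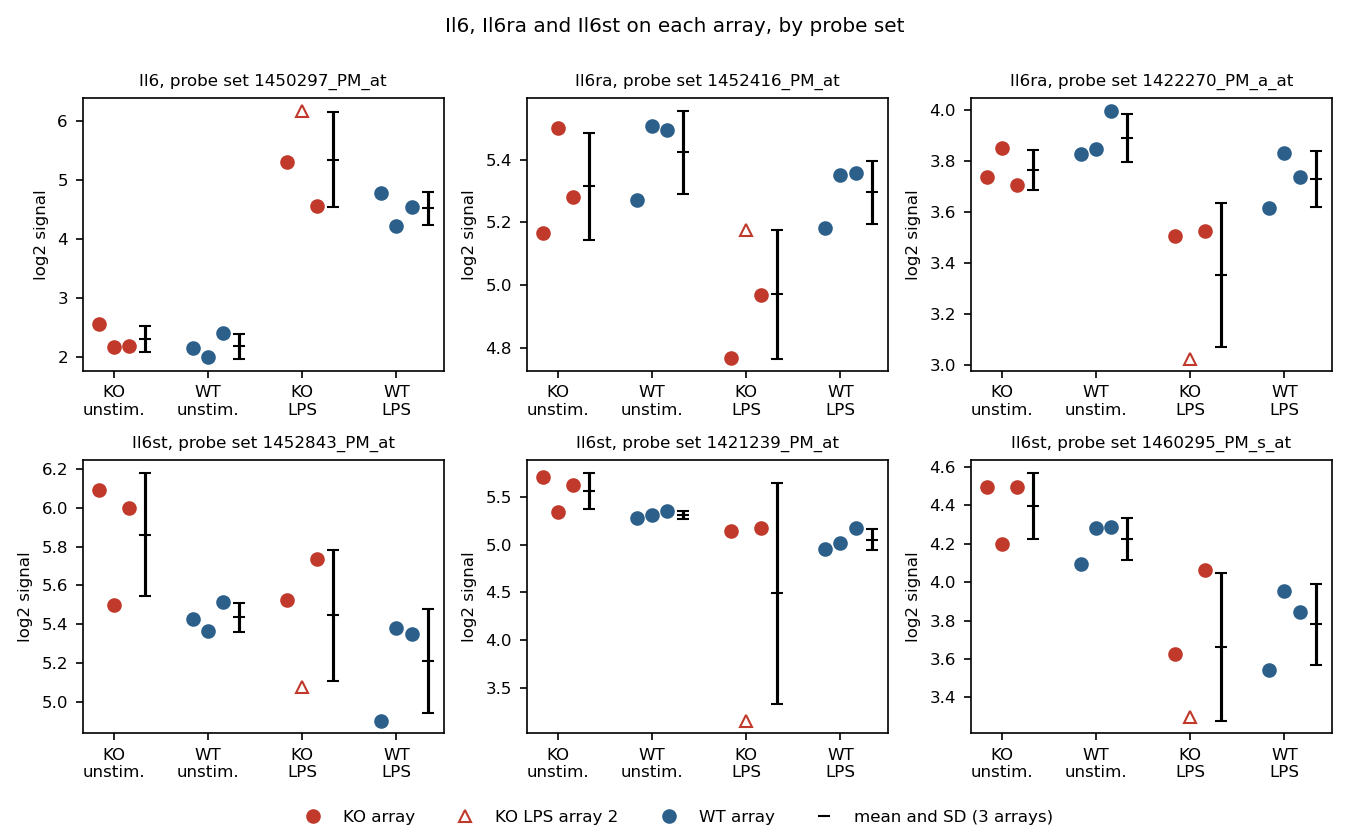
Log2 signal of each probe set of Il6, Il6ra and Il6st (y axis) on each array, by group (x axis), with points for arrays, an open triangle for KO LPS array 2 and bars for the mean and SD of 3 arrays. All Il6 values with LPS lie above all those without, and KO LPS array 2 is the highest array for Il6 and the lowest for probe set 1421239_PM_at of Il6st, at 3.16.

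Il6 did not pass the test between genotypes. After LPS the KO arrays at 5.31, 6.18 and 4.56 overlapped the WT arrays at 4.78, 4.23 and 4.55, since KO array 3 lay below WT array 1. The difference was 0.83 ± 0.31 (95% interval 0.15 to 1.50, limma adjusted p = 0.271), in a comparison in which 0.445% of genes passed (0.532% without KO LPS array 2). It was 0.41 ± 0.22 without KO LPS array 2 (interval −0.07 to 0.90, adjusted p = 0.615), and it passed without KO LPS array 3 (1.22, adjusted p = 0.0343), so its size and its call each turned on 1 array. Unstimulated, the difference was 0.12 ± 0.31 (interval −0.56 to 0.79, adjusted p = 0.967, with 0.252% of genes passing, and 0.971% without KO LPS array 2), and it was −0.01 without KO unstimulated array 1.

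Averaged over both stimulations, Il6 differed between KO and WT by 0.47 ± 0.22 (adjusted p = 0.314, with 2.62% of genes passing, and 3.7% without KO LPS array 2), by 0.26 without KO LPS array 2 and by 0.67 without KO LPS array 3 (limma adjusted p = 0.0422). Permuting genotype over single arrays within stimulation gave an exact two-sided p of 0.11, and 0.195 without KO LPS array 2. That test ignores the array number. Same-numbered arrays of a genotype deviated together, and with them kept together the exact p was 0.3, where 0.1 is the smallest that 3 against 3 pairs can give. The difference between the KO and the WT effect of LPS was 0.71 ± 0.44 (interval −0.24 to 1.66, adjusted p = 0.969), and 0.30 ± 0.30 without KO LPS array 2. Its interval holds 0 as well as a difference of 1.66. No gene passed for this difference by limma, with 639 of 17097 genes at an unadjusted p under 0.05. The order of Il6 group means was KO with LPS, WT with LPS, unstimulated KO and unstimulated WT. The arrays of KO and WT overlapped with LPS and also without it.

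**Figure D2:**
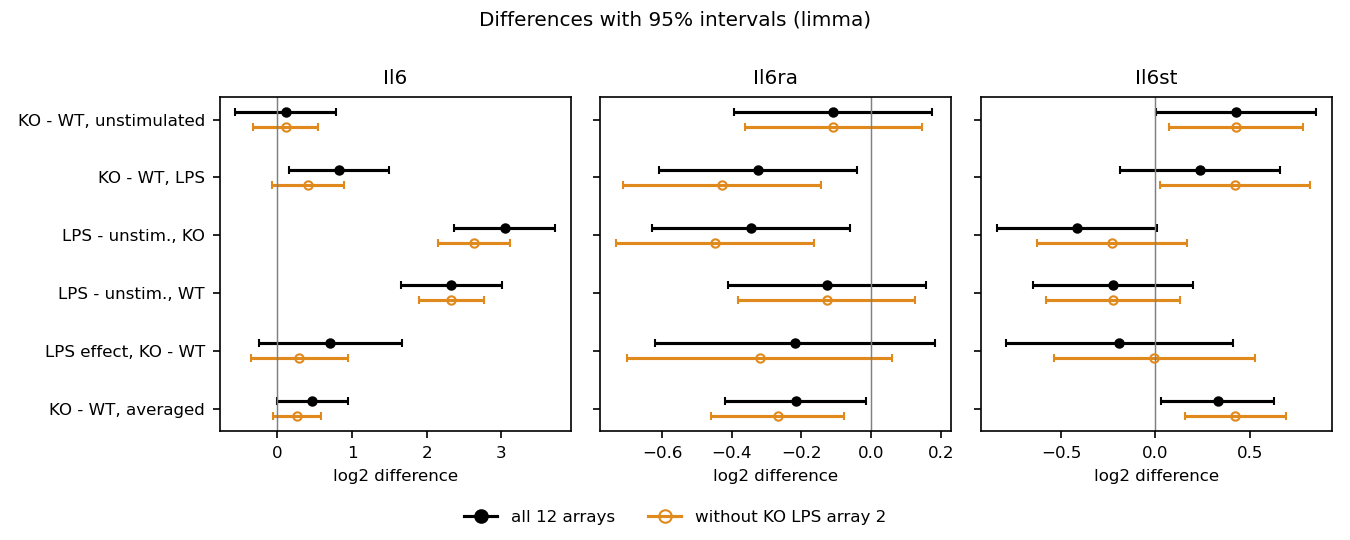
Log2 differences (x axis) of Il6, Il6ra and Il6st for 6 comparisons (rows), with 95% intervals from limma, for all 12 arrays (filled) and without KO LPS array 2 (open). The intervals of Il6 for LPS against unstimulated begin at 2.37 in KO and 1.66 in WT, and those for the difference of LPS effects hold 0 for all 3 genes.

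Il6ra, which gives a cell the means to bind IL-6, was lowest in KO with LPS on both of its probe sets, but neither passed. The brighter probe set, 1452416_PM_at, measured 4.77, 5.18 and 4.97 on KO arrays and 5.18, 5.35 and 5.36 on WT arrays after LPS. Unstimulated, it measured 5.16, 5.50 and 5.28 on KO arrays and 5.27, 5.51 and 5.49 on WT arrays. After LPS all KO arrays lay below all WT arrays, although KO array 2 and WT array 1 both round to 5.18, while the unstimulated genotypes overlapped. Groups without overlap in that comparison were found for 17.1% of all genes, 10.2% with KO lower.

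The difference of Il6ra after LPS was −0.33 ± 0.13 (interval −0.61 to −0.04, limma adjusted p = 0.305), and −0.43 ± 0.13 without KO LPS array 2 (adjusted p = 0.254). The other probe set, 1422270_PM_a_at, measured 3.51, 3.03 and 3.53 on KO arrays and 3.62, 3.83 and 3.74 on WT arrays after LPS. It measured 3.74, 3.85 and 3.71 on KO arrays and 3.83, 3.85 and 3.998 on WT arrays unstimulated. These groups did not overlap after LPS either, where KO differed from WT by −0.38 ± 0.13 over all arrays and by −0.21 ± 0.11 without KO LPS array 2 (limma p adjusted over all probe sets 0.263 and 0.611). KO LPS array 2 was the lowest array for this probe set and the highest of the KO LPS arrays for the brighter one. Unstimulated, KO differed from WT by −0.11 ± 0.13 on the brighter probe set (limma adjusted p = 0.898) and −0.12 ± 0.13 on the other. Averaged over stimulation the differences were −0.22 ± 0.09 (adjusted p = 0.27) and −0.25 ± 0.09, and for the mean of the 2 probe sets −0.23 (adjusted p = 0.0861). Without KO LPS array 2 the brighter one gave −0.27 ± 0.09 averaged (adjusted p = 0.13).

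LPS against unstimulated gave Il6ra differences of −0.34 ± 0.13 in KO (adjusted p = 0.418) and −0.13 ± 0.13 in WT (adjusted p = 1) on the brighter probe set. Without KO LPS array 2 the KO effect was −0.45 ± 0.13 on the brighter probe set (limma adjusted p = 0.273) and −0.25 ± 0.11 on the other. Both probe sets were read on the same 6 array pairs, and the share of all genes lower in every pair was not computed. The LPS array was lower than the unstimulated array of its number in all 12 differences over both probe sets and genotypes. On the brighter one these were −0.40, −0.32 and −0.31 in KO and −0.09, −0.16 and −0.14 in WT, and the KO changes all lay below the WT changes, as for 7.56% of all genes. On 1422270_PM_a_at they were −0.23, −0.83 and −0.18 in KO and −0.21, −0.01 and −0.26 in WT, and overlapped. The difference between the KO and the WT effect of LPS was −0.22 ± 0.19 (interval −0.62 to 0.19, limma adjusted p = 0.969), and with number within genotype as a block −0.22 ± 0.14 (adjusted p = 0.811). Without KO LPS array 2 it was −0.32 ± 0.18 on the brighter probe set and −0.09 ± 0.15 on the other. Permuting stimulation within genotype gave exact two-sided p-values of 0.03 and 0.01 for the brighter and the other probe set (0.025 and 0.01 without KO LPS array 2). Permuting genotype over single arrays within stimulation gave 0.065 and 0.015 (0.035 and 0.03 without KO LPS array 2). With arrays of 1 number kept together it gave 0.2 and 0.1. These belong to 12 such tests over the 6 probe sets, unadjusted, and 0 of 12 limma tests of Il6ra probe sets passed after adjustment over all probe sets, with 6 at an unadjusted p under 0.05. Over all probe sets and the same 6 comparisons 9.15% of tests had such an unadjusted p, from 4.07% for the difference of LPS effects to 15.1% for the averaged comparison. In that fit 0.262% of probe sets passed between genotypes after LPS, 0.129% unstimulated and 1.84% averaged, and 0.289% and 0.102% passed for LPS in KO and WT. Both probe sets ordered the groups alike, with unstimulated WT highest, then unstimulated KO, WT with LPS and KO with LPS, and on both probe sets all neighbours except the last pair overlapped.

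Il6st, the shared signalling chain, also did not pass in any comparison (0 of 18 limma tests over its 3 probe sets, 5 at an unadjusted p under 0.05, against 9.15% of the tests of all probe sets), and the probe sets disagreed on the genotype difference after LPS. The brightest, 1452843_PM_at, measured 5.53, 5.07 and 5.74 on KO arrays and 4.90, 5.38 and 5.35 on WT arrays after LPS. Unstimulated, it measured 6.09, 5.50 and 6.00 on KO arrays and 5.43, 5.37 and 5.51 on WT arrays. KO array 2 was the lowest KO array in both conditions, and both pairs of genotypes overlapped. The differences were 0.23 ± 0.20 after LPS (interval −0.19 to 0.66, limma adjusted p = 0.629) and 0.43 ± 0.20 unstimulated (0.00 to 0.85, adjusted p = 0.57). Leaving out KO LPS array 2, the difference after LPS was 0.42 ± 0.18 (adjusted p = 0.484), while leaving out WT LPS array 1 gave 0.08 and leaving out KO LPS array 3 gave 0.09.

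Another Il6st probe set, 1421239_PM_at, measured 5.15, 3.16 and 5.17 on KO arrays and 4.96, 5.02 and 5.17 on WT arrays after LPS. It measured 5.71, 5.34 and 5.63 on KO arrays and 5.28, 5.31 and 5.35 on WT arrays unstimulated. KO LPS array 2 thus lay about 2 log2 units under the rest of its group on this probe set. The genotype difference after LPS was −0.56 ± 0.39 with that array and 0.11 ± 0.12 without it. Probe set 1460295_PM_s_at measured 3.63, 3.30 and 4.06 on KO arrays and 3.54, 3.95 and 3.85 on WT arrays after LPS, and 4.50, 4.20 and 4.50 on KO arrays and 4.10, 4.28 and 4.29 on WT arrays unstimulated. Its difference after LPS was −0.12 ± 0.18 with the array and 0.06 ± 0.16 without it. With that array left out all 3 probe sets thus had a higher mean in KO both with LPS and without, at 0.06 to 0.42 with LPS and 0.17 to 0.43 unstimulated, none past the test.

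Averaged over stimulation, Il6st on its brightest probe set differed between KO and WT by 0.33 ± 0.14 (limma adjusted p = 0.26), and by 0.42 ± 0.12 without KO LPS array 2 (adjusted p = 0.0841). The averaged difference was −0.15 ± 0.28 on 1421239_PM_at and 0.03 ± 0.13 on 1460295_PM_s_at, and 0.18 and 0.12 without KO LPS array 2. For the mean of the 3 probe sets it was 0.068 (adjusted p = 0.882). Permuting genotype over single arrays gave exact two-sided p-values of 0.065 for the brightest, 0.98 for 1421239_PM_at and 0.88 for 1460295_PM_s_at. In the same order these exact p-values were 0.02, 0.045 and 0.335 without KO LPS array 2, unadjusted. With all arrays and those of 1 number kept together they were 0.3, 1 and 1.

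LPS against unstimulated gave lower Il6st signals in 17 of 18 same-numbered differences, read from 3 probe sets on the same 6 array pairs. The exception was WT number 2 on the brightest (0.02). The share of all genes lower in every pair was not computed. On 1460295_PM_s_at the same-numbered differences were −0.87, −0.90 and −0.43 in KO and −0.55, −0.33 and −0.44 in WT, and the LPS arrays of each genotype all lay below its unstimulated arrays. The groups of 1421239_PM_at did not overlap in either genotype, and those of the brightest overlapped in both. Groups without overlap in that direction were found for 7.71% of genes in KO and 5.09% in WT, counted on the brightest probe set of each gene. Across the table none passed: the LPS effect on 1460295_PM_s_at was −0.73 ± 0.18 in KO and −0.44 ± 0.18 in WT (limma p adjusted over all probe sets 0.169 and 0.893), and on the brightest −0.42 ± 0.20 in KO and −0.23 ± 0.20 in WT (adjusted p = 0.536 and 1). Without KO LPS array 2 the KO effect was −0.55 ± 0.16 on 1460295_PM_s_at and −0.23 ± 0.18 on the brightest, and without WT LPS array 1 the WT effect on the brightest was −0.07. On 1421239_PM_at the LPS effect was −1.07 ± 0.39 in KO and −0.26 ± 0.39 in WT, and −0.40 ± 0.12 in KO without KO LPS array 2. Permuting stimulation within genotype gave exact two-sided p-values of 0.075 for the brightest, 0.005 for 1421239_PM_at and 0.005 for 1460295_PM_s_at, and in the same order 0.135, 0.01 and 0.005 without KO LPS array 2, where 0.005 is the smallest possible. The brightest probe set ordered the groups as unstimulated KO, KO with LPS, unstimulated WT and WT with LPS, and each neighbouring pair overlapped. The other 2 put KO with LPS last, at means of 4.49 and 3.66. Leaving out its array 2 these means were 5.16 and 3.85, above those of WT with LPS at 5.05 and 3.78.

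**Figure D3:**
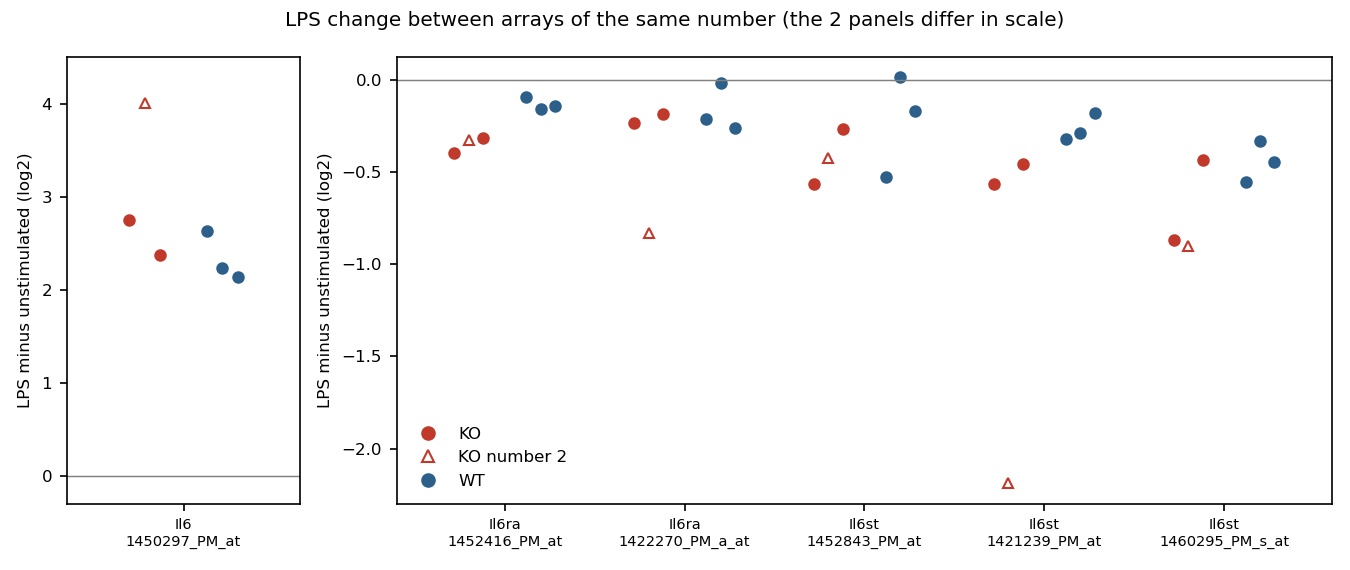
LPS minus unstimulated signal (log2, y axis) between arrays of the same number, for each probe set (x axis), KO left and WT right, with an open triangle for KO number 2 and separate scales for Il6 and the receptor chains. Il6 rose in 6 of 6 differences, by 2.14 to 4.004. Of the 30 receptor differences, from several probe sets on the same 6 array pairs, 29 are below 0. The share of all genes lower in every pair was not computed.

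The other genes of the pathway were read from 8 lists holding 67 genes, of which 57 were measured. The lists were chosen with earlier results of these data known, so the counts that passed are no test of the lists. Between genotypes 0 of the 57 passed limma's test after LPS and 0 unstimulated, where 0.445% and 0.252% of all genes passed, and 14 and 5 of the 57 had an unadjusted p under 0.05, as did 13.8% and 8.73% of all genes. In the LPS comparisons 5 passed in KO and 2 in WT, all higher with LPS, where 0.357% and 0.117% of all genes were called higher. Without KO LPS array 2 the counts were 4 and 5. The median LPS effect over the 57 was 0.11 in KO and 0.16 in WT, against −0.02 and 0.00 over all genes.

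Among 6 measured ligands of the IL-6 family, Lif, a cytokine that signals through gp130 together with its own receptor chain, rose with LPS in KO. It measured 4.56, 4.37 and 4.59 on KO arrays with LPS and 3.58, 3.77 and 3.86 on unstimulated KO arrays (0.76 ± 0.13, limma adjusted p = 0.0258), with no overlap. In WT it measured 4.59, 4.70 and 4.68 with LPS and 3.68, 4.17 and 3.91 without, a difference of 0.73 ± 0.13 that missed the threshold (adjusted p = 0.0615). Ebi3, a subunit of interleukin-27, differed by 0.93 ± 0.22 in KO and 1.02 ± 0.22 in WT without passing (limma adjusted p = 0.128 and 0.175). Its KO difference was 0.68 without KO LPS array 2 (limma adjusted p = 0.22). Both genes passed in WT without KO LPS array 2 (adjusted p = 0.025 for Lif and 0.0217 for Ebi3). Of the 5 other measured receptor chains of the family 0 passed limma in any comparison (3 had an unadjusted p under 0.05 in at least 1, as did 29.2% of all genes), and 4 of them, Cntfr, Il31ra, Lifr and Osmr, had all group means under the median gene.

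Of the kinases, STATs and adaptors of the receptor 0 of 6 passed limma in any comparison. In single comparisons, 0% (difference of LPS effects) to 2.62% (averaged over stimulation) of all genes passed. An unadjusted p under 0.05 in at least 1 comparison was found for 2 of the 6, and for 29.2% of all genes. Stat3, which carries the gp130 signal to the nucleus, had an LPS effect of −0.16 ± 0.18 in KO and 0.03 ± 0.18 in WT (limma adjusted p = 0.838 and 1). Of the 6 negative regulators 0 passed and 4 had such an unadjusted p. Socs3, the STAT3-induced inhibitor that binds gp130, measured 3.57, 2.64 and 4.05 in KO and 3.82, 4.13 and 3.54 in WT with LPS, and 3.25, 2.84 and 2.80 in KO and 3.17, 3.05 and 2.89 in WT without. Its LPS effect was 0.46 ± 0.28 in KO and 0.79 ± 0.28 in WT (adjusted p = 0.66 and 0.801), and 0.85 in KO without array 2 (adjusted p = 0.114). Socs3 thus overlapped between KO with and without LPS through array 2 alone, while the WT groups did not overlap. In WT, 6.81% of all genes were higher with LPS without overlap. The WT effect of Socs3 did not pass without KO LPS array 2 either (limma adjusted p = 0.126). Its unstimulated means of 2.96 in KO and 3.04 in WT lay under the median gene. Of 4 genes that shed Il6ra or steer its shedding 0 passed and 1 had such an unadjusted p. The protease gene Adam10 differed between KO and WT by 0.59 ± 0.16 averaged over stimulation (adjusted p = 0.077) and Adam17 by 0.04 ± 0.13 (adjusted p = 0.909). Without KO LPS array 2 Adam10 differed by 0.44 and Adam17 by −0.09 (limma adjusted p = 0.0567 and 0.619).

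Among 12 reported STAT3 targets, Myc, a growth-promoting transcription factor, rose with LPS in KO (1.36 ± 0.23, limma adjusted p = 0.0243). Its difference in WT was 1.33 ± 0.23 (adjusted p = 0.058, and 0.00233 without KO LPS array 2). Bcl2l1, which encodes the survival protein Bcl-xL, rose with LPS in WT by 0.77 ± 0.11 (limma adjusted p = 0.0137) and differed by 0.29 ± 0.11 in KO (adjusted p = 0.415). The difference of those effects was −0.48 ± 0.16 (adjusted p = 0.969). Once KO LPS array 2 was left out, Myc was also higher in KO than WT averaged over stimulation (0.49, limma adjusted p = 0.0408), against 0.34 with it (adjusted p = 0.323). Without that array 2 of the 57 pathway genes passed in this comparison, as did 3.7% of all genes. Pim1, another of the 12, was lower in KO without passing (−0.47 with all arrays, limma adjusted p = 0.119, and −0.35 without KO LPS array 2).

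Among 9 measured transcription factors and cofactors of the Il6 gene, Nfkbiz, whose product IkB-zeta is needed for Il6 induction in mouse macrophages, rose with LPS in both genotypes. It measured 9.16, 9.61 and 8.99 in KO and 8.59, 8.85 and 8.69 in WT with LPS, and 7.52, 7.57 and 7.24 in KO and 7.51, 7.34 and 7.42 in WT without. All LPS arrays lay above all unstimulated arrays, and after LPS all KO arrays lay above all WT arrays, as for 6.92% of all genes. The LPS effect was 1.81 ± 0.15 in KO and 1.29 ± 0.15 in WT (limma adjusted p = 0.000673 and 0.00554), and their difference was 0.52 ± 0.22 (adjusted p = 0.969). KO and WT after LPS differed by 0.54 ± 0.15 (adjusted p = 0.164), and by 0.37 without KO LPS array 2 (limma adjusted p = 0.346). The difference of LPS effects was 0.35 without that array. Cebpb, a C/EBP factor, measured 7.29, 8.90 and 6.66 in KO and 6.52, 6.65 and 6.03 in WT after LPS, a difference of 1.21 ± 0.43 that did not pass (limma adjusted p = 0.248) and was 0.57 without KO LPS array 2. The rest of this list had lower means in KO after LPS, none passing: Relb (−0.82), Rela (−0.63), Irf1 (−0.35), Nfkb2 (−0.32), Rel (−0.31), Atf3 (−0.10) and Jun (−0.02). The list median was −0.31, against −0.03 over all genes. Without KO LPS array 2 the list median was −0.04.

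Among 9 measured regulators of Il6 mRNA stability, Zc3h12a, which encodes the RNase Regnase-1 that degrades Il6 mRNA, rose with LPS in KO. It measured 4.93, 5.31 and 5.09 in KO and 4.54, 4.41 and 4.40 in WT with LPS, and 3.99, 4.44 and 3.98 in KO and 3.93, 3.76 and 3.998 in WT without. After LPS all KO arrays lay above all WT arrays, again as for 6.92% of genes, and unstimulated they overlapped. The LPS effect was 0.97 ± 0.14 in KO (limma adjusted p = 0.00862) and 0.55 ± 0.14 in WT (adjusted p = 0.388). Zc3h12a was the 1 pathway gene of 57 that passed between genotypes averaged over stimulation, where 1.74% of genes were called higher in KO (0.45 ± 0.10, adjusted p = 0.0363, and 0.40 without KO LPS array 2, adjusted p = 0.0414). Zfp36l1, which encodes a protein that promotes decay of AU-rich transcripts, rose with LPS in KO (0.72 ± 0.14, limma adjusted p = 0.049), a call lost without KO LPS array 2 (0.56, adjusted p = 0.06). No pathway gene passed for the difference of LPS effects, by limma, with 3 of 57 at an unadjusted p under 0.05.

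**Figure D4:**
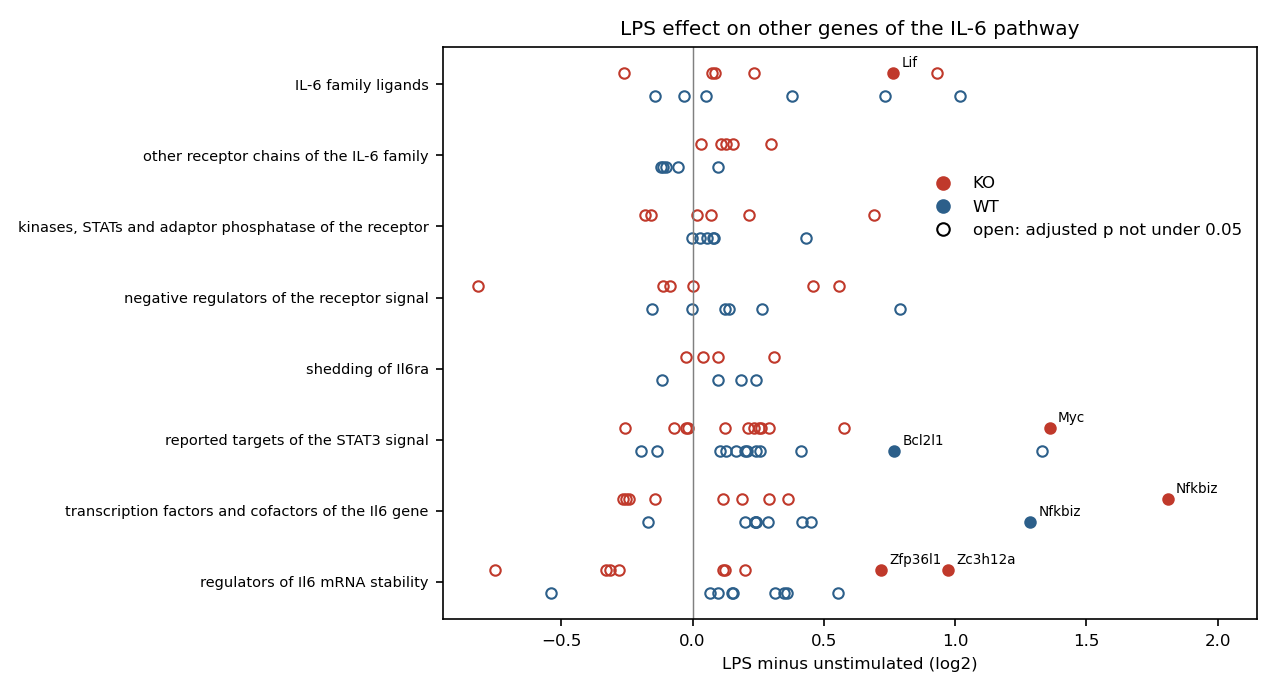
LPS minus unstimulated difference (log2, x axis) of each measured pathway gene by list (rows), KO above WT, filled where limma's adjusted p is under 0.05 and open otherwise. Nfkbiz is filled in both genotypes, at 1.81 in KO and 1.29 in WT, among 5 filled genes in KO and 2 in WT.

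The genes whose level followed each member most closely over the 12 arrays were ranked by Pearson's r, among the 8714 genes whose highest group mean was above the median gene, predicted gene models left out. For Il6 these were Nfkbiz (r = 0.979), the inflammasome sensor gene Nlrp3 (r = 0.972), Stx11 (r = 0.965), Marcksl1 (r = 0.964) and the elongation factor gene Ell2 (r = 0.959). Without KO LPS array 2 their r was 0.942 to 0.973 over 11 arrays. All 5 had higher group means with LPS than without in both genotypes, as Il6 did, and arrays in 2 clusters by stimulation make such values high. For Il6ra they were the ubiquitin ligase gene Cbl (r = 0.912), Rad9b, Fbxo21, Klf11 and Cdc42se1 (r = 0.880 to 0.893), each lowest in KO with LPS. For Il6st they were the mitofusin gene Mfn2 (r = 0.921), the transcription factor genes Bach2 (r = 0.907) and Mef2c (r = 0.887), Usp40 and Dag1 (r = 0.877 and 0.854), each highest in unstimulated KO. These r values describe 12 arrays that share group and, within a genotype, number.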

How the data were processed

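DCs were isolated from single mouse spleens, and RNA was extracted on RNeasy columns, amplified with WT-Ovation Pico and labelled with biotin for Affymetrix arrays, per the labels' protocols. The deposited values are log2 signals that the authors made with RMA, per the submitters' processing notes; the labels give no version. The median log2 signal of an array was 2.65 to 2.72.

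Of 45141 probe sets the 104 controls were left out. The 28898 with 1 gene symbol were reduced to the brightest probe set per gene (17097 genes), without a filter on dim genes, and fitted with limma 3.58.1 (R 4.3.3, statmod 1.5.0) as 4 group means (8 residual degrees of freedom). Calls are Benjamini-Hochberg adjusted p under 0.05 over all genes. Single probe sets came from the same fit over 45037 rows. SEs and 95% intervals are moderated. Exact permutation tests relabelled arrays within strata.

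Il6, Il6ra and Il6st, the 8 pathway lists and the marker lists were chosen with earlier results of these data known. Called list members and the 5 genes with the highest r per member were named, and a few further list members were named after their values were seen. On simulated data for LPS against unstimulated in KO (17097 genes), 20% of shifts of 0.5, 82% of shifts of 1 and 100% of shifts of 2 were recovered. Each size was given to 50 genes, and 10 of the 161 genes called were unchanged. The simulated arrays were independent and had 1 spread per gene. They held neither the correlation of same-numbered arrays nor an array set apart like KO LPS array 2, so these shares may not hold for the real arrays. The number of arrays limits the precision. The labels number the arrays of each group 1 to 3. Deviations from group means correlated at 0.230 to 0.440 between arrays of 1 number within a genotype, and those pairs were blocked in an alternative. Between genotypes, arrays of 1 number and stimulation correlated at −0.01 to 0.22, with number 3 highest (0.22 unstimulated and 0.19 with LPS). Differently numbered arrays gave −0.26 to 0.195 there. P-values of the main fit set each difference against the spread among arrays treated as independent, although same-numbered arrays deviated together.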

Additional observations from a re-analysis of the deposited data

How the results depend on the processing

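Of 174 values of the 3 genes under other settings (every probe set as a row, probe set means, a filter on dim genes, quantile normalization or median centring, another variance model, fewer groups, and the replicate block, also without KO LPS array 2), 172 kept their direction and side of the threshold. The exceptions were Il6 for LPS in KO with the groups of the comparison alone (3.04, no longer passing) and Il6st between genotypes after LPS with the mean of its probe sets (−0.15 against 0.23). Of 216 values leaving out 1 array, 209 kept both. Several settings, such as every probe set as a row or the filter on dim genes, left the difference itself unchanged. So did leaving out an array outside the comparison. Direction could not change there, so these counts say little about robustness. Il6 ran from −0.0127 to 0.23 between genotypes unstimulated, from 0.41 to 1.22 after LPS and from 0.26 to 0.67 averaged, and its LPS effect in WT from 2.20 to 2.48. Between genotypes after LPS, Il6ra ran from −0.43 to −0.22 and Il6st from 0.08 to 0.42, none passing. Keeping arrays of 1 number together in the permutation of genotype was chosen after seeing the data. The replicate block by number within genotype changed no call of the 3 genes (Il6 for LPS in KO 3.04, adjusted p = 0.000367), nor did it without KO LPS array 2.

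Counts of genes called moved more. Leaving out 1 array gave 5 to 166 for KO against WT unstimulated (43 with all arrays), 2 to 358 after LPS (76), 37 to 98 for LPS in KO (67), 4 to 67 for LPS in WT (20) and 186 to 826 for the averaged comparison (448). With every probe set as a row, the probe sets called (of 45037, not genes) were 118 for KO against WT after LPS, 130 for LPS in KO, 46 for LPS in WT and 830 averaged, and with probe set means 31 genes were called for LPS in WT. With the groups of the comparison alone the genes called were 84 unstimulated, 0 after LPS, 13 for LPS in KO and 56 for LPS in WT. The replicate block within genotype gave 148 for LPS in KO, 75 for LPS in WT and 284 averaged, and the replicate block by number over all arrays 170 unstimulated, 280 after LPS, 111 for LPS in KO, 53 for LPS in WT and 878 averaged. The causes were not tested. The dim unstimulated Il6 signal limits what a fold against it can show.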
